A study of Rattus norvegicus with 6 samples.

Results

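A set of 10 signals by which cells of a nerve can draw in or restrain macrophages were followed in rat Schwann cells stimulated with soluble Neuregulin1 (NRG1). They were chosen by gene symbol, and all were found among the 17327 genes of the count files. Cd200 is a membrane glycoprotein that holds macrophages in check. The other 9 attract macrophages and related cells or sustain them, namely the chemokines Ccl2, Ccl7, Cx3cl1, Cxcl1, Cxcl10 and Cxcl12, the CSF1 receptor ligands Csf1 and Il34, and the cytokine Mif.

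The cells were primary Schwann cells, the glia of peripheral nerves, purified from sciatic nerves of adult female Wistar rats. They had been expanded with forskolin, an activator of adenylyl cyclase, and with a growth factor that the labels give as glial growth factor, itself a form of NRG1, and the methods as recombinant soluble NRG1β1. Mock cells were thus withdrawn from this kind of ligand by the starvation, and NRG1 cells were exposed to it again after it. Starvation followed for 18 h in medium with 2% serum and 10 µM forskolin. The 3 mock samples then received ligand buffer and the 3 NRG1 samples 10 nM recombinant soluble NRG1β1 for 6 h, both with forskolin still present. Each of 3 independent cell preparations gave 1 mock and 1 NRG1 sample, so the samples are paired by replicate number. The cultures hold no axons, and the macrophages that would answer these signals are not part of the model.

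After a nerve is cut, Schwann cells lose contact with axons and release chemokines that bring blood monocytes into the nerve, where they mature into macrophages and clear myelin debris. CCL2 is the best known of these signals and acts on the receptor CCR2. CSF1 and IL-34 share the receptor CSF1R, on which macrophages depend for survival. CD200 works in the opposite sense, since its receptor CD200R1 on myeloid cells carries an inhibitory signal.

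In these cultures NRG1 lowered the restraining signal and raised part of the recruiting ones. Cd200 RNA fell 3.21-fold, while Ccl2 rose 3.12-fold and Mif 1.58-fold, each in 3 of 3 pairs. Csf1, Cxcl12 and Cxcl1 did not pass the test. Ccl7, Il34, Cx3cl1 and Cxcl10 had too few counts to be tested, and Ccl7 was counted almost only in replicate 1.

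Counts on genes summed to between 6821590 and 15475018 per sample. Levels are given as CPM, counts per 1e+06 after TMM scaling of the libraries, and 3 counts, taken as the floor, correspond to between 0.19 and 0.44 CPM. Genes were tested with edgeR's quasi-likelihood test blocked by preparation, and a gene was called at an adjusted p of at most 0.01. Of the 9740 genes that passed the count filter, 11.8% were called, 6.31% as higher and 5.51% as lower in NRG1 samples. Of the 10 members, 6 passed the filter and 3 were called, with 2 higher and 1 lower. With the additional threshold of an absolute log2 fold change over 1, Ccl2 was called as higher and Cd200 as lower, against 3.47% of all tested genes, 1.56% higher and 1.91% lower. A p-value here sets the change from mock to NRG1 against its spread over 3 pairs, with information on variance shared across genes. Without the pairing, edgeR called 0 genes, with 1334 at an unadjusted p under 0.05, and Cd200, Mif and Ccl2 had adjusted p-values of 0.163, 0.222 and 0.658.

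Replicate 1 stood apart from the other 2 preparations in both conditions, on a first principal component that held 68% of the variance. It also carried RNA of part of the fibroblast marker genes, of which those named next were picked after their values were seen. Pdgfra was counted 6512 times in mock sample 1 and 6205 times in NRG1 sample 1, against 1 to 25 counts in the other 4 samples. Thy1, with 9493 and 8576 counts, and Dcn, with 4574 and 3203 counts, were at 0 in the other 4. The summed level of the 12 fibroblast markers, most of it Col1a1 and Col3a1, ranged from 14076 to 53447 CPM in mock and from 13699 to 57738 CPM in NRG1 samples. Some other markers of the list showed no such excess. Pi16 was at 5.21, 5.03 and 5.12 CPM and Fbln1 at 7.88, 5.33 and 7.80 CPM in mock samples 1, 2 and 3. Tcf21 and Dpt had at most 1 count in any sample. Col1a2 had at most 2 counts, while Col1a1, the other chain of type I collagen, had between 119349 and 240687. The Col1a2 count is therefore not read as a level and says nothing about fibroblasts here. The 13 analysed Schwann cell markers summed to 7487 CPM in mock sample 1 against 19646 and 17916 CPM in mock samples 2 and 3, and Sox10, the lineage transcription factor, had at least 2963 counts everywhere. Of 17 macrophage markers, 8 were at 0 in all samples, among them Ptprc, Adgre1, Cx3cr1, Tyrobp and C1qa. Others were counted, and Cd68 had between 15 and 57 counts in each sample. Cd14 had 58 counts in mock sample 1 and 40 in NRG1 sample 1, against 2 to 5 counts in the other 4 samples. The macrophage list summed to between 4.59 and 11.8 CPM in mock and between 4.38 and 9.47 CPM in NRG1 samples. Results that rest on replicate 1 are therefore given with and without it.

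**Figure D1:**
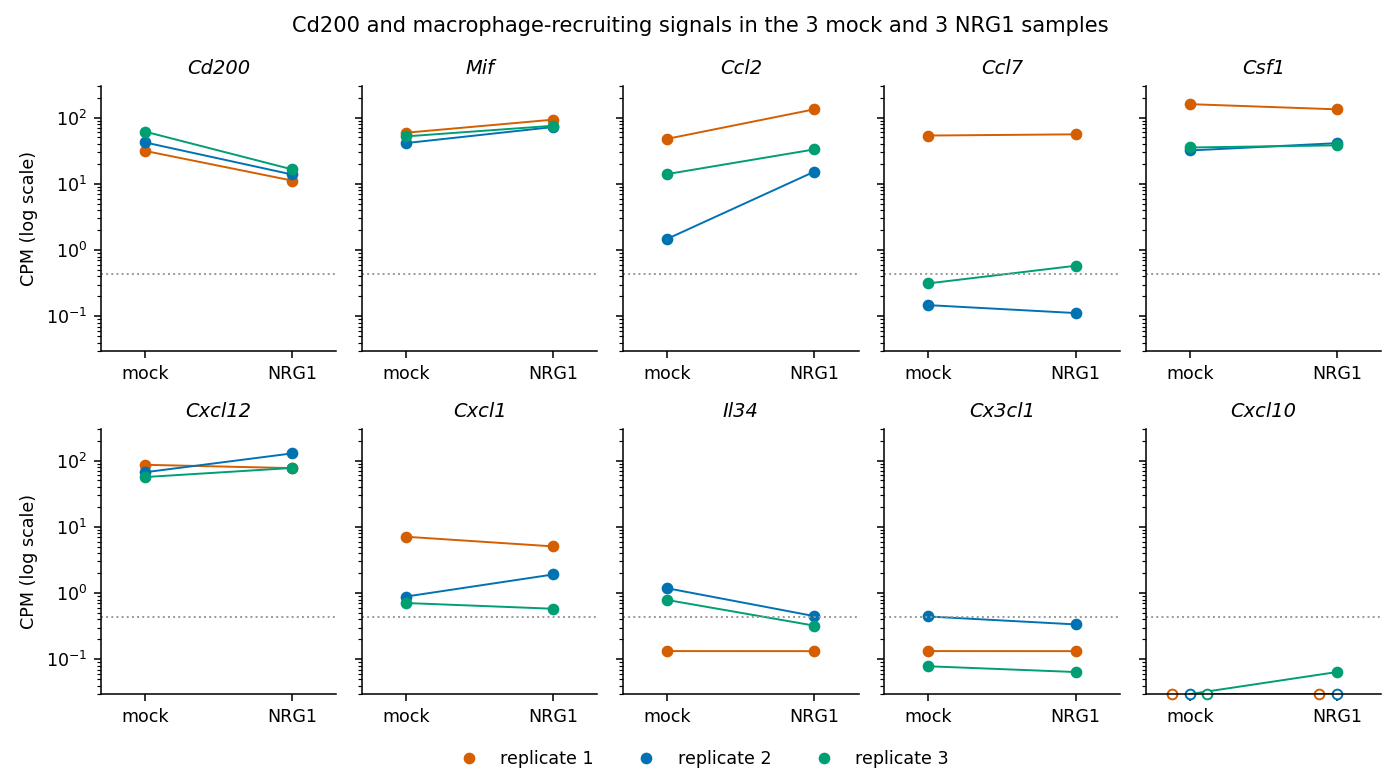
Level of each member in CPM (log scale) in the mock and NRG1 sample of each replicate, joined by a line, with open circles for 0 counts drawn at the lower edge and a dotted line at the highest floor of 0.44 CPM. Cd200 falls and Ccl2 and Mif rise in all 3 pairs, while Ccl7 lies at 53.4 and 55.7 CPM in replicate 1 and at no more than 0.58 CPM in replicates 2 and 3.

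The DNA upstream of the start sites is shown first, since the members include textbook examples of regulated promoters. RefSeq sequences of the GRCr8 assembly, which is not the rn5 assembly of the counts, were found for 7 of the 10 members, and Ccl2, Csf1 and Il34 had no entry. The 250 bases before the listed start were searched on both strands for 4 motifs. These were the cAMP response element TGACGTCA, the AP-1 site TGANTCA, a kappaB site and an interferon-stimulated response element. They occur in 1.59%, 6.34%, 1.3% and 3.41% of the 33469 promoters of that length, in that order. Matches stand in capitals below and are a description of letters, not of binding. Looser forms of the kappaB site and of the other motifs were not searched, so lower case does not show their absence.
Cd200, chr11:68916065-68916199, plus strand, the signal that fell, 135 bases that lie before any RefSeq start of the gene: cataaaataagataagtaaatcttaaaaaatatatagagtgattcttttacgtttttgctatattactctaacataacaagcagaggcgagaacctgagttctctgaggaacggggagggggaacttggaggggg
Ccl7, chr10:67513845-67514094, plus strand, the neighbour of Ccl2: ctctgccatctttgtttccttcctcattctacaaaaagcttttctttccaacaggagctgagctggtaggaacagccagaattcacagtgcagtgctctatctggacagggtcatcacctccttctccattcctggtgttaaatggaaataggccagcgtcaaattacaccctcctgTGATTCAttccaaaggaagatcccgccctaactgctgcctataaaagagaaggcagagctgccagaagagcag
Cxcl1, chr14:17479322-17479571, minus strand, a classic NF-kappaB target: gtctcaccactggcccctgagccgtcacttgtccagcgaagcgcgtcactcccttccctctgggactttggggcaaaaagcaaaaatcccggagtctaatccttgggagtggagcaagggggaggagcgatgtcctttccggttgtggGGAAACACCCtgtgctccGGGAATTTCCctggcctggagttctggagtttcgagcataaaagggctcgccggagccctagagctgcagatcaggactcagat
Cxcl10, chr14:15988816-15989065, plus strand, an interferon-inducible chemokine: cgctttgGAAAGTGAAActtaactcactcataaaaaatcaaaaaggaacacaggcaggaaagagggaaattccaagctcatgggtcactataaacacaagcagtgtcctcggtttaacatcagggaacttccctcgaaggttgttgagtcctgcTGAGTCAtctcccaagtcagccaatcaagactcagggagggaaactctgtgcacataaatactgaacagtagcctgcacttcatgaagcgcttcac
Mif holds a cAMP response element 61 bases before its start, and its sequence is not printed because the window lies inside the span of its RefSeq gene model. Cxcl1 holds 2 kappaB matches, at 102 and 84 bases, and Cxcl10 an interferon-stimulated response element at 243 bases and an AP-1 match at 96 bases. Ccl7 has an AP-1 match at 73 bases. None of the 4 motifs was found in the 250 bases before the listed start of Cd200, Cxcl12 or Cx3cl1. The Cx3cl1 window also lies inside the span of its RefSeq gene model. For Cd200, only the 135 printed bases lie before any RefSeq start.

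Cd200, the restraining signal, was counted 235, 285 and 779 times in mock samples 1, 2 and 3 and 84, 123 and 256 times in NRG1 samples 1, 2 and 3. These counts correspond to 31.4, 42.2 and 61.4 CPM in mock and to 11.2, 13.8 and 16.5 CPM in NRG1 samples. The highest NRG1 sample lay below the lowest mock sample, and ranges without overlap were found in 20.1% of tested genes, in this direction in 9.94%. The means were 45.0 ± 15.2 CPM in mock and 13.8 ± 2.66 CPM in NRG1 samples (SD, n = 3 each). The log2 fold change was -1.68 (SE 0.15, adjusted p = 5.3e-06), and Cd200 ranked 20 of all tested genes by p-value. The log2 ratios in replicates 1, 2 and 3 were -1.47, -1.60 and -1.88. Without replicate 1 the log2 fold change was -1.76. RNA from whole cultures cannot tell fewer cells of a type from less RNA per cell. Cd200l1, a related gene beside Cd200 in the GRCr8 annotation, was not analysed here.

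The study grouped Cd200 under macrophage activation with Adgrf5, in a list it drew from these same samples, so the direction of its genes is not independent evidence. Adgrf5, an adhesion G protein-coupled receptor, was at 7.75, 4.14 and 7.88 CPM in mock and at 1.20, 0.787 and 1.81 CPM in NRG1 samples 1, 2 and 3. It fell in all 3 pairs, from non-overlapping ranges, with a log2 fold change of -2.33 (SE 0.28, adjusted p = 7.05e-05).

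Mif encodes macrophage migration inhibitory factor, a small cytokine that keeps macrophages at the site and signals through CD74 and CD44. It was counted 441, 278 and 659 times in mock and 696, 639 and 1163 times in NRG1 samples 1, 2 and 3. The levels were 58.9, 41.1 and 51.9 CPM in mock and 92.8, 71.8 and 75.1 CPM in NRG1 samples, again without overlap, as in 10.2% of tested genes in this direction. Its log2 fold change of 0.66 (SE 0.12, adjusted p = 0.00159) stayed under 1. The ratios of NRG1 to mock in replicates 1, 2 and 3 were 1.57, 1.75 and 1.45, and without replicate 1 the log2 fold change was again 0.66. Rodent genomes hold processed copies of Mif, and reads with more than 1 alignment were left uncounted, so its level may be understated. Ddt, the paralogue of Mif, had means of 49.3 ± 3.46 CPM in mock and 38.9 ± 2.60 CPM in NRG1 samples (SD, n = 3 each) and did not pass with a log2 fold change of -0.34 (SE 0.13, adjusted p = 0.0642). Cops5, a binding partner of MIF in the cytoplasm, had 0.35 (SE 0.13, adjusted p = 0.0611).

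Ccl2 encodes the main chemokine for monocytes. It was counted 357, 10 and 178 times in mock and 998, 136 and 512 times in NRG1 samples 1, 2 and 3, or 47.7, 1.48 and 14.0 CPM against 133.0, 15.3 and 33.1 CPM. The preparations differed more from each other than the conditions did, so the ranges overlapped, although the NRG1 sample was the higher one in every pair. Its log2 fold change was 1.64 (SE 0.22, adjusted p = 0.000175). The ratio of NRG1 to mock was 2.79 in replicate 1 (95% exact binomial interval 2.47 to 3.16) and 2.36 in replicate 3 (1.98 to 2.81). In replicate 2, where mock had 10 counts, the ratio was 10.3 (5.45 to 22.03). These intervals cover counting error only. Without replicate 1 the log2 fold change was 1.83 (adjusted p = 2.03e-11 in edgeR, from replicates 2 and 3 only). The smallest adjusted p of that fit was 5.8e-48, against 6.15e-08 with all replicates. Its p-values are thus not on the scale of the main fit, and the smaller value is not stronger evidence for Ccl2. DESeq2 with the same block put Ccl2 just over the threshold, with a log2 fold change of 1.95 and an adjusted p of 0.0107.

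Ccl7, the next gene after Ccl2 on chromosome 10 and an attractant for the same cells, showed another picture. Its counts were 400, 1 and 4 in mock and 418, 1 and 9 in NRG1 samples 1, 2 and 3, so it was well measured in replicate 1 and near or under the floor in the other 2. In replicate 1, at 53.4 CPM in mock and 55.7 CPM in NRG1, the ratio was 1.04 (95% exact binomial interval 0.907 to 1.199), below the interval of Ccl2 in the same 2 libraries. In replicate 3 the ratio was 1.84 (0.515 to 8.19). Ccl7 did not pass the filter, and without the filter its log2 fold change was 0.15 (adjusted p = 0.736).

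The high Ccl7 counts lay in the same 2 libraries as those of the fibroblast marker genes and of the macrophage marker Cd14. Ccl11, which follows Ccl7 on the chromosome and attracts eosinophils, had the same distribution, with 70, 2 and 10 counts in mock and 80, 7 and 8 counts in NRG1 samples. It was named after its values were seen. Ccl2 was likewise highest in both replicate 1 samples, at 47.7 CPM in mock and 133.0 CPM in NRG1, against 1.48 to 33.1 CPM in replicates 2 and 3. The part of fibroblasts or of other cells in the levels of Ccl2, Ccl7 and Ccl11 was not tested.

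**Figure D2:**
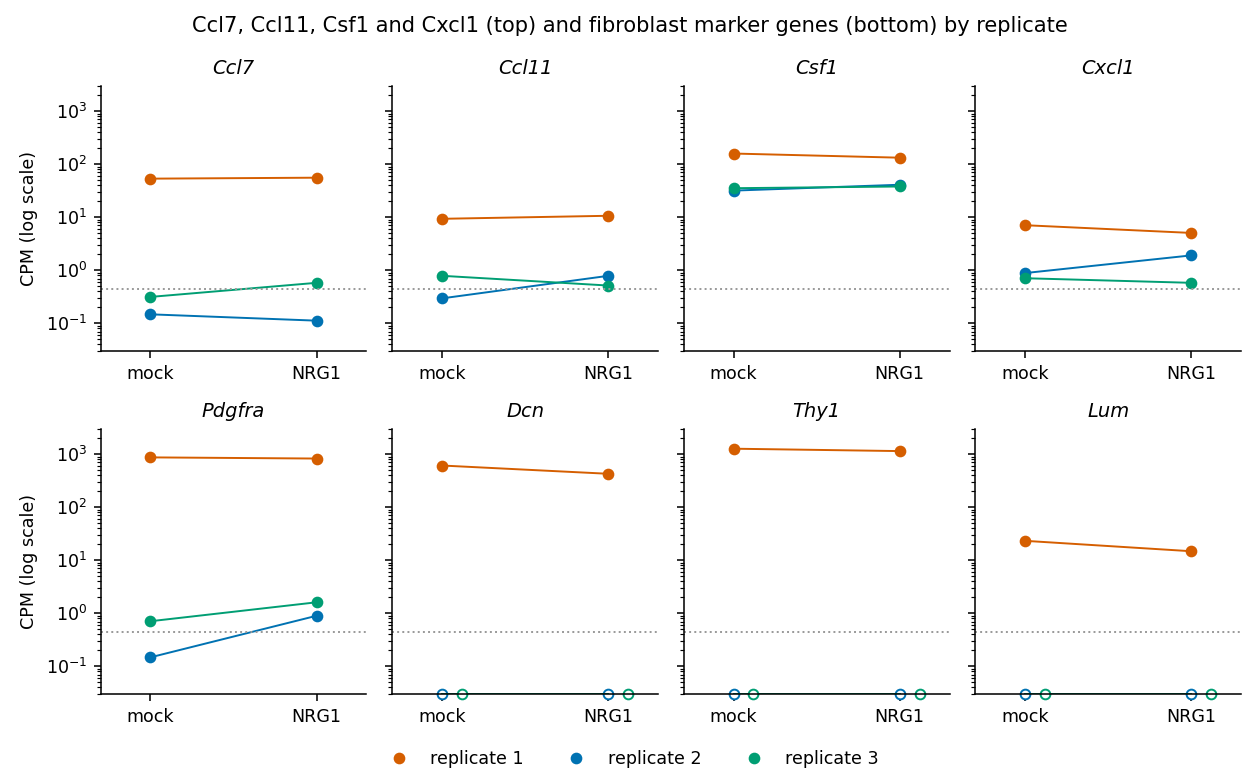
Level in CPM (log scale) of Ccl7, Ccl11, Csf1 and Cxcl1 and of 4 fibroblast marker genes in the mock and NRG1 sample of each replicate, with open circles for 0 counts and a dotted line at the highest floor of 0.44 CPM. In all 8 panels both replicate 1 samples lie above the other 4 samples, and Dcn, Thy1 and Lum are at 0 in replicates 2 and 3.

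Csf1 and Il34 feed the same receptor but were measured very unevenly. Csf1, the colony-stimulating factor for macrophages, was at 159.0, 31.8 and 35.3 CPM in mock and at 132.8, 41.0 and 38.0 CPM in NRG1 samples 1, 2 and 3. Replicate 1 was the highest in both conditions, and the pairs moved in different directions, with log2 ratios of -0.26, 0.36 and 0.11. The log2 fold change was 0.05 (95% interval -0.24 to 0.34, adjusted p = 0.816), and 0.23 without replicate 1 (adjusted p = 0.459). Il34 had 1, 8 and 10 counts in mock and 1, 4 and 5 in NRG1 samples, or at most 1.18 CPM. In replicates 2 and 3 its ratios of 0.38 (0.0837 to 1.42) and 0.41 (0.11 to 1.32) had intervals that include 1. In the edgeR fit without the count filter its log2 fold change was -1.22 (SE 0.77, adjusted p = 0.31). Both ratios lay below 1, but no difference was detectable at this depth.

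Cxcl12, the ligand of CXCR4, had the most counts of the CXC chemokines among the 10 signals. It was at 86.2, 66.4 and 56.3 CPM in mock and at 76.8, 127.9 and 77.1 CPM in NRG1 samples 1, 2 and 3. It rose in replicates 2 and 3 only, and its log2 fold change of 0.41 did not pass (95% interval 0.06 to 0.77, adjusted p = 0.0873). Without replicate 1 it was called, with a log2 fold change of 0.70 (adjusted p = 0.00138). That fit held replicates 2 and 3 only, and its p-values are not on the scale of the main fit.

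Cxcl1, an attractant for neutrophils, had 53, 6 and 9 counts in mock and 38, 17 and 9 counts in NRG1 samples. It was at most 1.91 CPM outside replicate 1 and had a log2 fold change of -0.09 (95% interval -0.86 to 0.68, adjusted p = 0.887). That interval is wide enough to hold a change of over 1.5-fold in either direction. Without replicate 1 it no longer passed the count filter. Cxcl10, the interferon-inducible ligand of CXCR3, had 1 count in NRG1 sample 3 and 0 in the other 5 samples, where 3 counts would be between 0.24 and 0.44 CPM. Cx3cl1, a chemokine tethered to the membrane, had 1, 3 and 1 counts in mock and the same counts in NRG1 samples. For these 2 genes no difference was detectable at this depth.

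**Figure D3:**
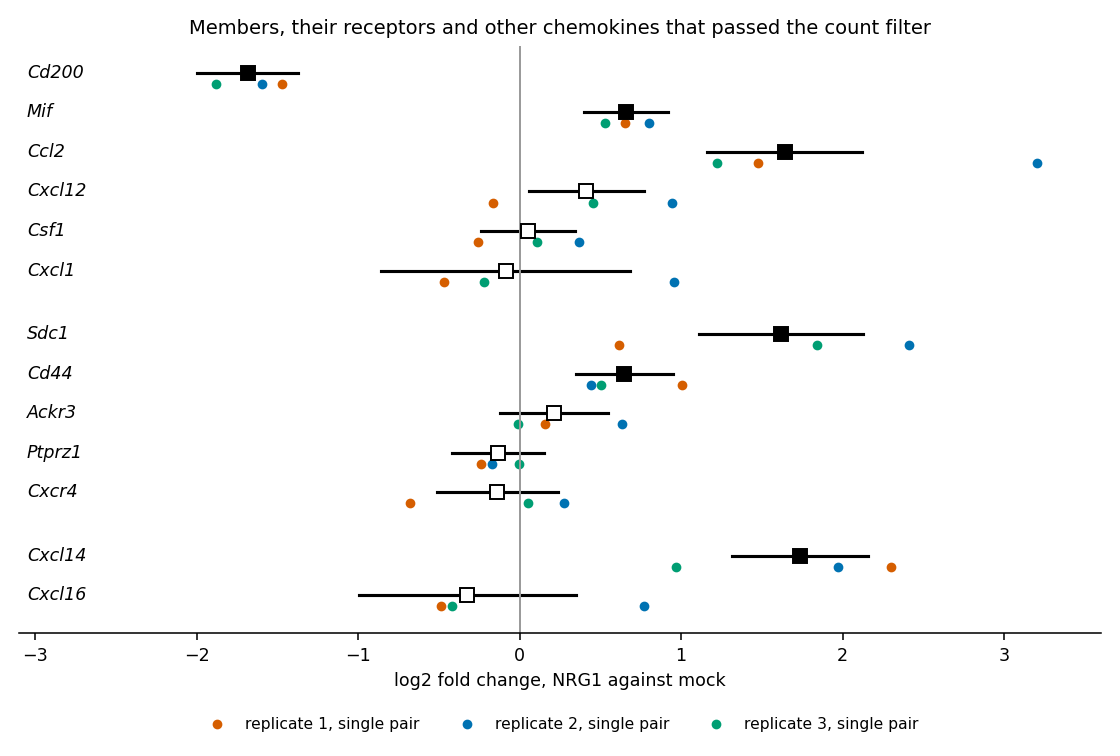
Log2 fold changes of NRG1 against mock for the 6 tested members (top), 5 tested receptors (middle) and 2 further chemokines (bottom), as squares with 95% intervals, filled where the adjusted p was at most 0.01, and with the log2 ratio of each single pair as a coloured point below. Cd200 lies left of 0 in all pairs, and Ccl2, Mif, Sdc1, Cd44 and Cxcl14 right of 0.

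Of 16 listed receptors for these signals, 15 were analysed and 5 passed the filter. Ccr2, which encodes the receptor of CCL2, was not among the 15 analysed. Several receptors that myeloid cells carry were hardly counted. Ccr3, Cx3cr1, Cxcr1 and Cxcr2 were at 0 in all samples, and Ccr1, Cxcr3 and Cd74 reached at most 5 counts. Cd200r1 had 1 count in mock sample 2 and Csf1r between 4 and 13 counts.

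Among those tested, 2 of the 5 rose and 3 did not pass, while 6.31% of all tested genes rose. The median log2 fold change was 0.21 against -0.03 over all tested genes. Sdc1, the proteoglycan syndecan-1 to which IL-34 can bind, went from 115.0, 44.7 and 69.6 CPM to 176.0, 238.8 and 249.9 CPM, a log2 fold change of 1.62 (SE 0.24, adjusted p = 0.000306). It rose least in replicate 1, and without that replicate the log2 fold change was 2.12. Like Ccl2, it missed the threshold with DESeq2, at an adjusted p of 0.0103. Cd44, the hyaluronan receptor that also passes on MIF signals, rose in all 3 pairs with means of 617.4 ± 305.4 CPM in mock and 912.2 ± 325.8 CPM in NRG1 samples (SD, n = 3 each). Its log2 fold change was 0.65 (SE 0.14, adjusted p = 0.00449), and the call was lost without replicate 1 (0.48, adjusted p = 0.0526) and without replicate 3 (0.75, adjusted p = 0.0142).

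The CXCL12 receptors Cxcr4 and Ackr3 did not pass, with log2 fold changes of -0.14 (95% interval -0.51 to 0.24) and 0.21 (95% interval -0.12 to 0.55). Cxcr4 stood at 52.5, 20.3 and 16.2 CPM in mock and at 32.8, 24.6 and 16.7 CPM in NRG1 samples, lower with NRG1 in replicate 1 only. Ptprz1, a receptor phosphatase that also binds IL-34, had -0.13 (95% interval -0.42 to 0.15).

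Most other chemokines were hardly counted. Of 30 listed, 16 were at 0 in all samples, 25 never exceeded 3 counts, and only Cxcl14 and Cxcl16 passed the filter. Cxcl14, an attractant for monocytes and dendritic cells, was counted 452, 882 and 2311 times in mock and 2239, 4549 and 5524 times in NRG1 samples 1, 2 and 3. The ratios were 4.94, 3.92 and 1.96, and the log2 fold change was 1.74 (SE 0.20, adjusted p = 3.98e-05). Cxcl16 did not pass, with a log2 fold change of -0.32 (95% interval -0.995 to 0.347).

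Beside Cd200, 10 further genes that restrain macrophages or complement were listed, and 7 were tested. Of these, 1 rose, 3 fell and 3 did not pass, with a median of -0.50, where 6.31% of all tested genes rose and 5.51% fell. The 3 that fell encode membrane inhibitors of complement. Cd46 had a log2 fold change of -1.13 (SE 0.27, adjusted p = 0.00721), Cd55 of -0.59 (SE 0.12, adjusted p = 0.00407) and Cd59 of -0.56 (SE 0.12, adjusted p = 0.00458), each in 3 of 3 pairs. Cd46 was weakly counted, from 32 to 57 times in mock and from 13 to 33 times in NRG1 samples. Leaving out a single replicate ended several of these calls, and DESeq2 with the block did not call Cd46 (adjusted p = 0.0472). Cd46 no longer passed without replicate 1, 2 or 3 (adjusted p = 0.0122, 0.0251 and 0.051), Cd55 without replicate 2 or 3 (0.0128 and 0.0505) and Cd59 without replicate 1 or 3 (0.0146 and 0.0939).

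Tgfb1, a cytokine that quiets macrophages, rose, with means of 109.8 ± 14.7 CPM in mock and 173.0 ± 30.4 CPM in NRG1 samples (SD, n = 3 each) and a log2 fold change of 0.65 (SE 0.12, adjusted p = 0.00191). Cd47, the signal that keeps macrophages from engulfing a cell, had -0.24 (95% interval -0.50 to 0.01, adjusted p = 0.159). Cd55 was far higher in replicate 1, with 618.6 CPM in mock against 66.3 and 46.0 CPM.

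NF-kappaB is the factor classically tied to Ccl2 and Cxcl1. Genes of its feedback and of inflammation, listed together with its subunit gene Rela, did not pass the test. Of the 11 tested, 0 were called in edgeR and 0 in DESeq2 with the block, and 3 had an unadjusted p under 0.05 in edgeR. Over all 9740 tested genes, 11.8% were called and 3479 had an unadjusted p under 0.05, so a count of 0 among 11 genes does not set this list apart. Their log2 fold changes lay between -0.30 and 0.38. The proinflammatory cytokines Il1a, Il1b and Tnf were at 0 in all samples.

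Of 10 tested interferon-induced genes, 2 fell and 1 rose, with a median of -0.53. Over all tested genes, 5.51% fell and 6.31% rose. Stat2, which carries the interferon signal to the nucleus, had a log2 fold change of -0.92 (SE 0.19, adjusted p = 0.00309). It was lost without replicate 2 or 3 (adjusted p = 0.0143 and 0.0145). Gbp2, a guanylate-binding protein whose family has close copies, rose with 1.04 (SE 0.16, adjusted p = 0.000524).

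**Figure D4:**
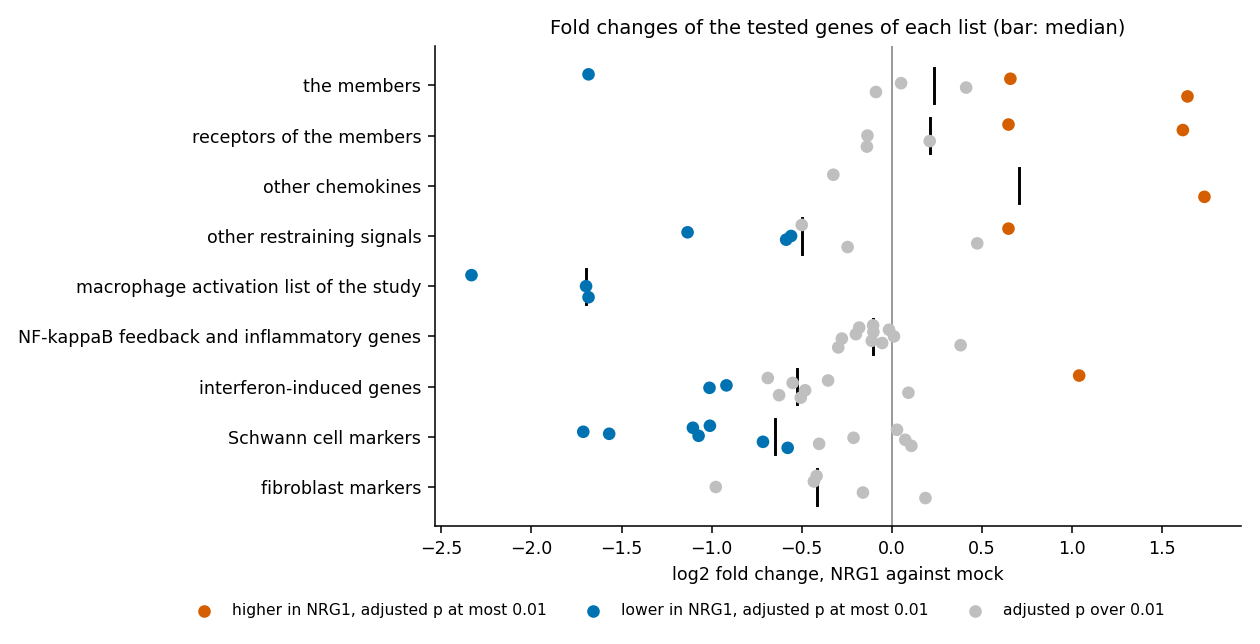
Log2 fold change of NRG1 against mock for every tested gene of the 10 signals and of 8 further lists, 1 point per gene, coloured where the adjusted p was at most 0.01, with a bar at the median of each list. The NF-kappaB feedback and inflammatory genes cluster between -0.30 and 0.38. The list drawn up by the study, which includes Cd200, lies at -1.68 or below.

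Across the 6 samples, the genes whose log2 CPM followed Cd200 most closely were Srd5a1, a steroid reductase, Ddah2 and Cog4, with Pearson's r of 0.997, 0.995 and 0.994. Srd5a1 had a log2 fold change of -1.35 and Ddah2 of -0.75, both past the test, while Cog4 had -0.23 (adjusted p = 0.158). For Mif they were Tmem109, Slc39a7 and Plaur, the urokinase receptor, with r of 0.986, 0.982 and 0.981, of which Plaur passed with 0.99. For Ccl2, they were Unc119, Homer2 and Sh2b2, with r of 0.992, 0.987 and 0.985, and none of these 3 passed. These are the highest values among all other tested genes over 6 samples that share preparations and libraries, so they describe likeness only.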

How the data were processed

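RNA was measured in 3 mock and 3 NRG1 samples, grouped and numbered by their labels. Alignment by the authors was to rn5 with TopHat2 2.0.10, and htseq gave the raw counts per RefSeq gene that they deposited. Strand setting was not given in the sources used here. The 5 summary lines per file were kept out, and between 47.0% and 49.9% of the alignments counted in each file were on genes.

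From these counts, edgeR 4.0.16 in R 4.3.3 was run on genes passing filterByExpr with a minimum count of 10, with TMM normalization and a quasi-likelihood model of replicate number and condition, as in the paired design of the study. Benjamini-Hochberg adjustment ran over 9740 genes. Standard errors are the log2 fold change over the square root of F. Single-pair log2 ratios use a prior count of 2, and ratios with intervals compare counts scaled to library size. Same-numbered samples come from the same preparation, and their deviations from the group means correlated across genes with r of 0.91, 0.67 and 0.81. Between replicates 2 and 3, r was 0.51 in both mismatched combinations, and it was negative between replicate 1 and the others. No 2 samples agreed within sampling noise. The script was tested on simulated data.

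Members and gene lists were chosen with earlier results of these data known. Named are all members, their receptors and the study's macrophage activation genes, up to 4 called genes per other list by p-value, and the 3 genes most like each called member. Pdgfra, Thy1, Dcn, Lum, Ccl11 and other genes given for a low or high count, as well as genes near a threshold, were named after their values were seen. Of the listed symbols, 4 were not analysed here, and some listed genes that the rule would name are not reported here. Alternatives were no replicate block, DESeq2 1.42.0 and its size factors, no filter, other thresholds and leaving out each replicate.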

Additional observations from a re-analysis of the deposited data

How the results depend on the processing

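Depth limits Ccl7 outside replicate 1, Il34, Cx3cl1 and Cxcl10, which lay at or near the floor of 3 counts. Without the replicate block, edgeR called 0 genes (smallest adjusted p = 0.139, and 1334 genes at an unadjusted p under 0.05), and therefore 0 members and 0 genes of every list. The adjusted p was then 0.163 for Cd200, 0.222 for Mif and 0.658 for Ccl2, and the log2 fold change of Csf1 turned to -0.0956. DESeq2 with no replicate block, chosen after seeing the data, called 114 genes up and 70 down, 59 and 42 of them past both thresholds. It kept Cd200 (adjusted p = 0.000107) and called 0 members up, 1 receptor up, 0 restraining and 0 interferon-induced genes, and Csf1 had -0.0809. DESeq2 with replicate block called 1 member up, Mif, and 1 receptor up, Cd44, and put Cxcl1 at 0.0387. Testing directly against the fold threshold left 13 genes up and 9 down, with 0 members, 0 receptors, 0 other chemokines, 0 restraining and 0 interferon-induced genes, and an adjusted p of 0.0102 for Cd200. An adjusted p threshold of 0.05 gave 1124 genes up, 1136 down and 6 interferon-induced genes down. Without the count filter 857 genes were called down. DESeq2 size factors changed no call among the members.

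Leaving out 1 replicate at a time called from 408 to 590 genes up and from 253 to 601 down, with 133 to 202 up and 122 to 299 down past both thresholds. Without replicate 1, 299 were down past both thresholds, without replicate 2, 122, and without replicate 3, 408 were up and 253 down at the adjusted p alone. Members called up numbered 2 to 3 and members called down 1 throughout. Receptors called up numbered 1 to 2, restraining genes called down 0 to 2 and interferon-induced genes called down 1 to 2. The log2 fold change ranged from -1.76 to -1.53 for Cd200, from 1.37 to 1.96 for Ccl2 and from 0.59 to 0.75 for Mif, and all 3 calls held. It changed sign for Csf1 (-0.0835 to 0.23), Cxcl1 (-0.43 to 0.0129) and Cxcr4 (-0.33 to 0.16), none of which was called in any of these fits. Smallest adjusted p-values in edgeR were 5.8e-48, 3.54e-07 and 1.7e-11 without replicates 1, 2 and 3, against 6.15e-08 with all. Calls are therefore not strictly comparable between these fits. Where a call changed, the cause was not tested.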

Other observations

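Marker lists of Schwann cells and of other cell types moved unequally with NRG1. Of 12 tested Schwann cell markers, 7 fell, 0 rose and 5 did not pass, with a median log2 fold change of -0.65. Over all tested genes, 5.51% fell. Pmp22 and Mbp, which encode myelin proteins, had -1.57 and -1.07, Egr2, the transcription factor of myelination, had -1.71, and Cdh19, an adhesion molecule of the Schwann cell lineage, had -1.10, all with adjusted p-values of at most 0.00024. Of 3 tested perineurial and endothelial markers, Itgb4, an integrin that Schwann cells also carry, fell by 1.44 on the log2 scale (adjusted p = 4.59e-06). Slc2a1, a glucose transporter, rose with 0.59 (adjusted p = 0.00452), a call lost without replicate 1 (adjusted p = 0.0512) and without replicate 3 (0.0242). Cd68, the single macrophage marker that passed the filter and 1 that other cells also express, had 0.29 (adjusted p = 0.53). Of 5 tested fibroblast markers 0 passed in edgeR, with 1 at an unadjusted p under 0.05. This was the collagen gene Col3a1, named after its values were seen, with a log2 fold change of -0.98 (adjusted p = 0.0118) and log2 ratios of 0.05, -1.59 and -1.38 in replicates 1, 2 and 3. No T cell marker passed the filter. The part of these shifts in the results for Cd200 and the recruiting signals was not tested.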
